A study of Homo sapiens with 5 samples.

Results

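The TEAD transcription factors, their coactivators YAP1 and WWTR1, and the Hippo target genes CCN1, CCN2, ANKRD1 and AMOTL2 were examined in a map of open chromatin of MCF10A cells, a non-tumorigenic human mammary epithelial cell line. The 10 genes are 4 TEAD genes, 2 coactivator genes and 4 target genes, out of 19663 protein-coding genes. They were chosen by name for their place in the pathway, with earlier results of these data known. In ATAC-seq the Tn5 transposase cuts open chromatin and tags it for sequencing, and a stretch where reads stand above the local background is called a hotspot. There was 1 group of 5 libraries, all from untreated MCF10A cells below the passage limit set by the submitters and grown with horse serum, EGF, hydrocortisone, cholera toxin and insulin, with no knockout, drug or second cell type. The 5 libraries were pooled before hotspots were called, so each value below is a single value with no replicate error, its sequencing depth is unknown, and neighbouring scores cannot be ordered beyond an error. The pooled list holds 181723 hotspots, each with a position on hg38 and a score whose reference is not stated. The score is used here only to compare hotspots within this list, by value, rank, median or a score limit.

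3 kinds of hotspot were collected for each gene. A promoter hotspot overlapped the 1000 bp on either side of a transcription start site (TSS) of a protein-coding transcript, an inside hotspot had its midpoint within the gene, and an assigned hotspot had that gene's TSS as the nearest protein-coding TSS within 100 kb. Assignment is by distance alone and says nothing of which gene a hotspot acts on. The 10 genes had 143 such hotspots in all, of which 18 were promoter hotspots, 86 lay inside the genes and 135 were assigned to them. By the midpoint, 73 of the 143 lay in introns and 53 between genes.

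In the Hippo pathway, the MST and LATS kinases phosphorylate YAP1 and its relative TAZ, the product of WWTR1, and keep both out of the nucleus. When the kinases are inactive, as in sparse or spread cells, YAP1 and TAZ enter the nucleus, and since neither binds DNA by itself, they reach chromatin through the TEAD factors. TEAD proteins recognise the bases CATTCC, which the other strand shows as GGAATG. In epithelial cells they often share enhancers with AP-1 factors, whose site reads TGACTCA on one strand of the DNA and TGAGTCA on the other. The genes CCN1 and CCN2 encode secreted matrix-associated proteins, ANKRD1 encodes an ankyrin repeat protein known from striated muscle, and AMOTL2 encodes an angiomotin-family protein that binds YAP1 and restrains it. All 4 are widely used as readouts of YAP1 and TAZ activity.

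The promoters of CCN2 and ANKRD1 are shown first because their TEAD cores lie within a short stretch before the TSS and inside the promoter hotspot. These sequences come from the RefSeq promoter table (GRCh38.p14), which covers 250 bases before to 50 bases after a TSS, are printed on the coding strand, and carry each TEAD core in capitals. The table held 10 windows for 7 of the 10 genes and none for CCN1, TEAD1 and TEAD4.
CCN2 promoter, chr6:131951373-131951572, minus strand: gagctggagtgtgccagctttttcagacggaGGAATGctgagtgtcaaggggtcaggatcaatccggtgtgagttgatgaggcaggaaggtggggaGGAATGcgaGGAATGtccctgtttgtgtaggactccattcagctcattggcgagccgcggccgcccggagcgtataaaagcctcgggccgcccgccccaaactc
ANKRD1 promoter, chr10:90921156-90921337, minus strand: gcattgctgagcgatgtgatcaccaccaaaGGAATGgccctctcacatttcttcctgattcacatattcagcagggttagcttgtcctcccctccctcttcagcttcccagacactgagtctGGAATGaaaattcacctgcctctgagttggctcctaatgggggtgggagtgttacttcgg
YAP1 promoter, chr11:102110235-102110340, plus strand: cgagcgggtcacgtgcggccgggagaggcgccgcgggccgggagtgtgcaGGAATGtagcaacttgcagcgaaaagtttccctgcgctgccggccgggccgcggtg
AMOTL2 promoter, chr3:134374499-134374528, minus strand: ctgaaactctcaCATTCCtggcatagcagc
A core was found in 4 of the 10 windows, against 14.0% of the 35116 windows of the table, on either strand. The CCN2 window held 3 cores, and 0.128% of all windows held 3 or more. The ANKRD1 window held 2 cores, and 1.37% of all windows held 2 or more. Both genes were picked as known targets of the pathway, so the comparison with all windows is no independent test. The YAP1 window and 1 of the 2 AMOTL2 windows held 1 core each, and the windows of TEAD2, TEAD3 and WWTR1 held none. No member's window held an AP-1 site, but the share over all windows is not given, so this marks no difference from other promoters. A match of letters is a description and does not show that a factor was bound.

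At the CCN2 promoter the cores began 95, 104 and 169 bp upstream of the TSS, and all 3 were in the 8-base form, which is an A or G, then CATTCC, then A or T, and which was searched as ACATTCCA, as ACATTCCT, as GCATTCCA and as GCATTCCT. In ANKRD1 the cores began 128 and 220 bp upstream, and neither was in the 8-base form. The YAP1 core began 162 bp upstream of the outermost TSS and was in the 8-base form. The AMOTL2 core, also in the 8-base form, began 69 bp upstream of the nearest of its 9 TSSs and lay in an exon of a non-coding AMOTL2 transcript. The stretches of CCN2 and ANKRD1 are the part of the window upstream of the TSS that lies in the hotspot, that of YAP1 is the core with 50 bases on either side, and that of AMOTL2 is cut to 30 bases around the core. None of the 4 stretches overlaps an annotated UTR.

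All 10 genes had a promoter hotspot, and so did 74.9% of all protein-coding genes. The highest promoter score of each gene ran between 10.5 in ANKRD1 and 46.9 in TEAD1, with a median of 25.8, against a median of 20.7 and quartiles of 11.0 and 30.8 over the 14733 genes with a promoter hotspot. The score exceeded the all-gene median in 7 of the 10 genes. By role, the medians were 35.4 for the TEAD genes, 25.8 for the coactivators and 17.9 for the target genes. The count of 7 and the TEAD median include TEAD2 at 39.1. With a TSS window of 500 bp, or with the midpoint required to lie in the window, TEAD2 scored 13.2. The all-gene medians were then 21.2 and 20.7. The lead of the TEAD genes over the coactivators thus depended on the rule.

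**Figure D1:**
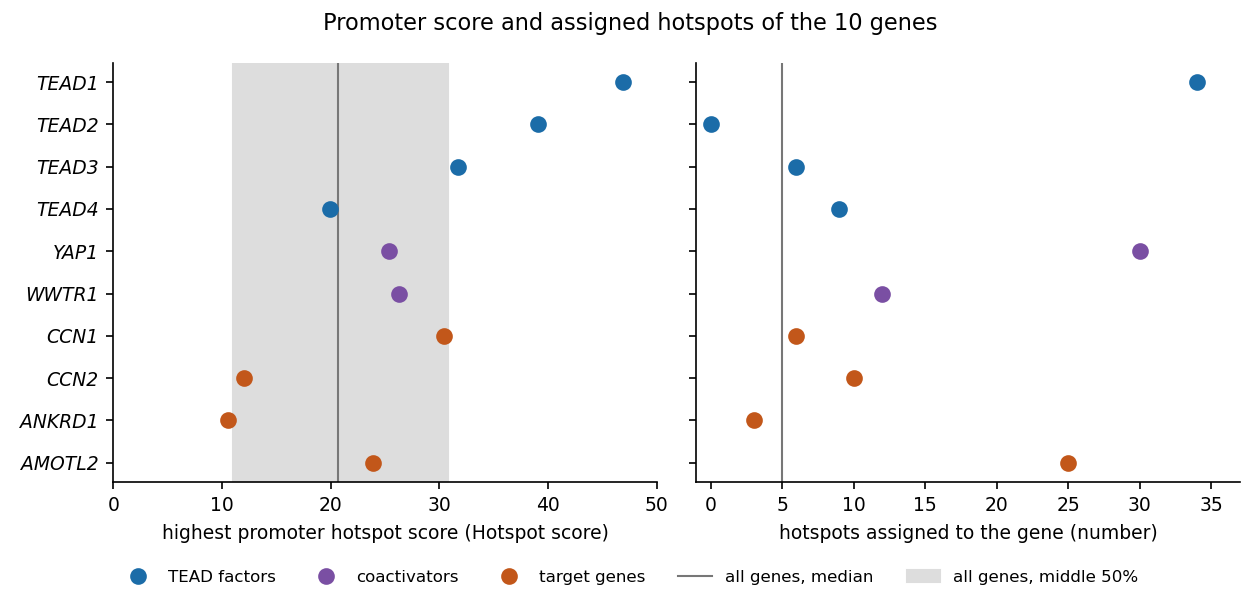
The left panel plots the highest promoter hotspot score of each gene (Hotspot score), the right panel the number of hotspots assigned to it, with points coloured by role, the vertical line at the all-gene median and the grey band over the middle 50% of all genes with a promoter hotspot. TEAD1 has the highest score, 46.9, and, under this rule of assignment, the most assigned hotspots, 34, while CCN2 and ANKRD1 have the lowest scores, 12.0 and 10.5.

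Among the TEAD genes, TEAD1 (chr11:12674421-12944737, plus strand) had the strongest promoter, with a hotspot of 1445 bp (chr11:12673860-12675304) and a score of 46.9, above 96.3% of the genes with a promoter hotspot. That hotspot held 3 TEAD cores, beginning 13 and 1 bp upstream and 139 bp downstream of the outermost TSS, and none was in the 8-base form. A second promoter hotspot, at a TSS deep in the gene, had a score of 5.20. TEAD1 had 34 assigned hotspots, more than 99.1% of all genes and the most of the 10 under the rule used here. This order depended on the rule. Within 50 kb, TEAD1 had 18, against 25 in YAP1 and 21 in AMOTL2, with the outermost 5′ end alone it had 20, against 21 and 24, and above the median score it had 14, against 15 in each. With the TSSs of every transcript, YAP1 had 36 and TEAD1 kept 34. It is the longest of the 10 genes at 270 kb, and 25 of its 34 hotspots lay in its introns and 8 between genes upstream. Most of the 32 away from its promoters were weak, with scores between 4.48 and 18.7, and 3 of them passed 10.0. The strongest of these lay in an intron 128 kb downstream of the TSS and held 1 TEAD core.

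TEAD2 (chr19:49340595-49362457, minus strand) differed from the other TEAD genes in having 0 assigned hotspots, where 91.7% of all genes had at least 1, although 2 were assigned to it when only the outermost 5′ end of each gene was used. It starts head to head with DKKL1, and both of its promoter hotspots were nearer to a DKKL1 TSS. The first (chr19:49363018-49364023), with a score of 39.1, lay upstream of TEAD2 with its midpoint in a DKKL1 intron, and the second (chr19:49361117-49362563), with a score of 13.2, covered 5 of the 6 TEAD2 TSSs. When the TSS window was set to 500 bp, only the second one remained, so the promoter score of TEAD2 was 13.2 in place of 39.1. The 2 weak hotspots in coding exons near its 3′ end, with scores of 5.85 and 4.52, were nearer to CD37.

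TEAD3 (chr6:35473597-35497079, minus strand) had 1 promoter hotspot of 1890 bp (chr6:35496132-35498021) with a score of 31.8, above 77.2% of genes. It held 2 TEAD cores in the 5′ UTR, beginning 65 and 74 bp downstream of the TSS. An intronic hotspot of 1481 bp, 10.9 kb downstream, had a score of 19.5 and held a TEAD core and an AP-1 site. TEAD3 had 6 assigned hotspots, and 3 more within the gene were nearer to RPL10A. TEAD4 (chr12:2959330-3040676, plus strand) had the lowest promoter score of the 4 TEAD genes, 19.9, just under the all-gene median, in a hotspot of 1888 bp (chr12:2958398-2960285) that held 4 TEAD cores and 2 AP-1 sites. Of these 4 cores, 3 lay in the 5′ UTR, beginning 54, 66 and 75 bp downstream of the TSS. Its other 2 promoter hotspots scored 7.64 and 5.02, and no hotspot of TEAD4 away from the promoters passed 8.34.

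The coactivator genes YAP1 (chr11:102110447-102233424, plus strand) and WWTR1 (chr3:149517235-149736714, minus strand) had promoter scores of 25.4 and 26.3, above 62.1% and 64.4% of genes. The YAP1 promoter hotspot (chr11:102109816-102112318) was the second widest of the 10 at 2503 bp, wider than 98.4% of strongest promoter hotspots, and lay within 1000 bp of 4 of its 5 TSSs. YAP1 had 30 assigned hotspots, more than 98.5% of all genes, 17 of them in introns and 11 between genes. Its locus was dense in hotspots, with 187 per Mb over the gene and 500 kb on either side, above 99.7% of genes, against a median of 88.5 over all genes. Away from the promoter, an intronic hotspot 67.5 kb downstream of the TSS scored 21.0 and held an AP-1 site. Another intronic hotspot scored 12.9 and held neither motif, and one past the 3′ end (chr11:102244659-102245426), 134 kb downstream, scored 14.8 and held a TEAD core and 2 AP-1 sites.

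WWTR1 had 12 assigned hotspots over 219 kb, and 13 of its hotspots lay inside the gene. The promoter hotspot with a score of 26.3 (chr3:149656887-149658743) held 1 core in the 8-base form and lay at the TSSs of shorter transcripts, whereas the outermost 5′ end of the gene had no hotspot within 1000 bp. In all, 5 of its 7 TSSs had a hotspot. With that outermost end alone, 9 of the 10 genes had a promoter hotspot, against 68.1% of all genes, and WWTR1 was the exception. Its strongest other hotspot, in an intron 75.8 kb downstream of the TSS, scored 11.3 and held 3 AP-1 sites and no TEAD core. The region around WWTR1 was sparser than that of YAP1, at 62.3 hotspots per Mb, above 28.3% of genes.

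Of the 4 target genes, 2 had a promoter score above the all-gene median and 2 below it. CCN1 (chr1:85580761-85584589, plus strand) and AMOTL2 (chr3:134355347-134375479, minus strand) had scores of 30.4 and 23.9, above 74.0% and 58.3% of genes, and CCN2 (chr6:131948176-131951372, minus strand) and ANKRD1 (chr10:90912096-90921087, minus strand) had scores of 12.0 and 10.5, above 27.2% and 23.8%. The hotspot of CCN1 (chr1:85580167-85583236) was the widest of the 10 at 3070 bp, wider than 99.5% of strongest promoter hotspots, and ran from 594 bp upstream to 2475 bp downstream of the TSS, so that hotspots covered 64.7% of the gene. It held 5 TEAD cores, of which 4 were in the 8-base form, beginning 110 bp upstream and 768, 954 and 1279 bp downstream of the TSS. The CCN2 promoter hotspot was narrow, at 632 bp, and a second one in the gene body, with a score of 7.12, held 2 more cores. The ANKRD1 hotspot of 380 bp lay wholly upstream of the TSS, and ANKRD1 was the only one of the 10 with no hotspot inside, where 82.4% of all genes had at least 1.

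CpG content also set ANKRD1 apart from the other 9 genes. Its promoter hotspot had a GC content of 46.3% and an observed over expected CpG ratio of 0.0985, where the other 9 ranged between 55.4% and 76.6% and between 0.670 and 0.991, and the medians over the strongest promoter hotspots of all genes were 64.1% and 0.766. The CCN2 hotspot, of similar score, had a GC content of 71.5% and a ratio of 0.908. Regions around both were poor in hotspots, at 42.9 per Mb for CCN2 and 36.7 per Mb for ANKRD1, above 11.7% and 7.31% of genes. CCN1 stood at 54.8 per Mb and AMOTL2 at 112 per Mb.

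**Figure D2:**
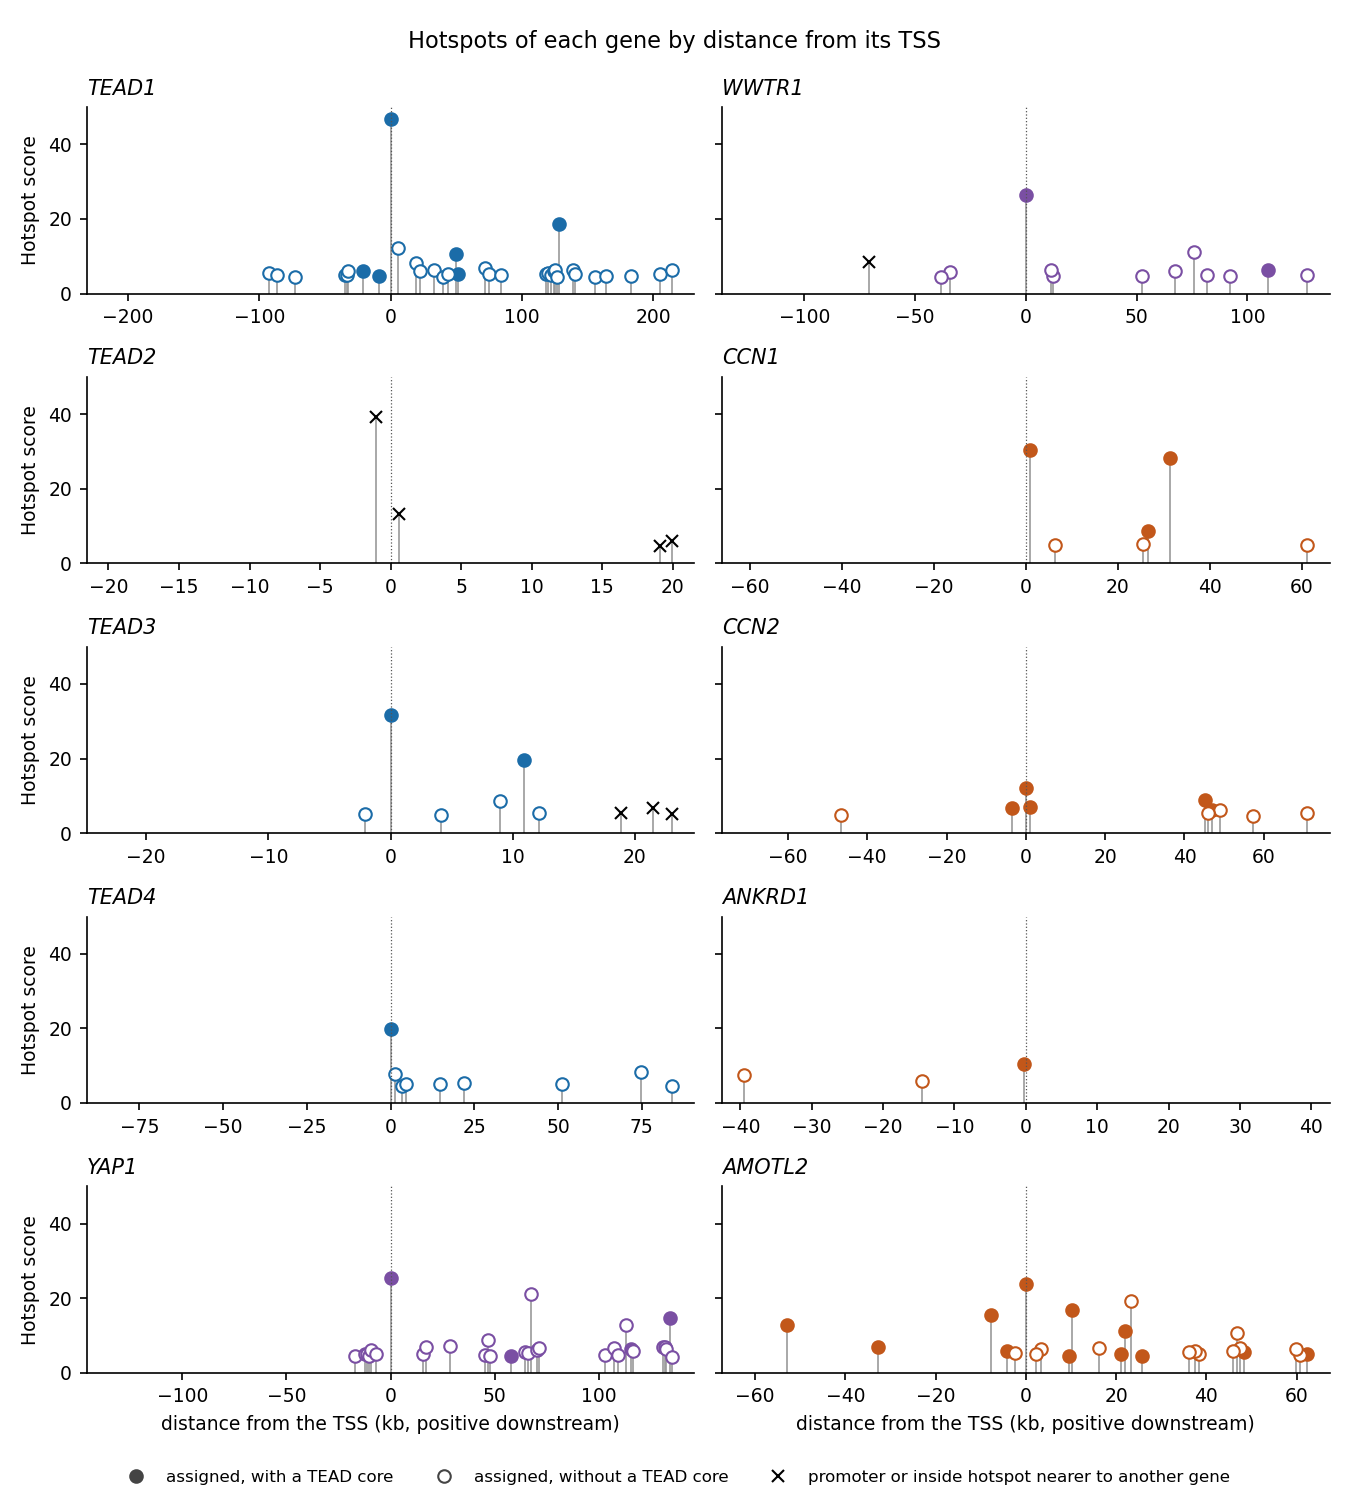
Each panel plots the promoter, inside and assigned hotspots of 1 gene by the distance of their midpoint from the TSS nearest to the strongest promoter hotspot (kb, positive downstream) against the Hotspot score. Filled points hold a TEAD core, open points do not, and crosses are hotspots nearer to another gene. All 4 hotspots of TEAD2 are crosses, and a CCN1 hotspot 31.3 kb downstream, with a score of 28.2, is nearly as high as that of its promoter, 30.4.

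Distal hotspots of the target genes ranged between weak ones and one nearly as strong as a promoter. CCN1 had 6 assigned hotspots, of which 5 lay past its 3′ end. Of these, a hotspot 31.3 kb downstream (chr1:85611751-85612298) had a score of 28.2, close to the 30.4 of the promoter and above 96.3% of all hotspots. It held 1 core in the 8-base form, and another hotspot 26.5 kb downstream, with a score of 8.71, held 2 cores and an AP-1 site. CCN2 had 10 assigned hotspots, and none of those away from the promoter passed the score of its promoter hotspot, 12.0. The farthest, 57.3 and 71.0 kb downstream, lay in a UTR and an intron of another gene, ENPP1. When the TSSs of every transcript of protein-coding genes were used, non-coding transcripts included, 4 were assigned to CCN2. ANKRD1 had 3 assigned hotspots, all upstream, the 2 distal ones with scores of 5.99 and 7.49 and no TEAD core. AMOTL2 had 25, more than 97.1% of all genes, and the gene is 20.1 kb long, and 14 of them lay past its 3′ end, up to 62.3 kb from the TSS. Of the AMOTL2 hotspots away from its promoters, 6 scored above 10.0, in an intron, on the upstream side and on the downstream side, and the highest reached 19.2.

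The strongest hotspot with a TEAD core away from the promoter is shown for CCN1, AMOTL2, YAP1 and TEAD1, whose distal hotspots the values above describe, as the core with 50 bases on either side, read from hg38 and printed on the coding strand with the core in capitals.
CCN1, past the 3′ end, chr1:85612051-85612156, plus strand: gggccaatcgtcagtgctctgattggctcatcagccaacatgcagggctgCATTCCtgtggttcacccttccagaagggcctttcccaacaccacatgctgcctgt
AMOTL2, intron, chr3:134364197-134364302, minus strand: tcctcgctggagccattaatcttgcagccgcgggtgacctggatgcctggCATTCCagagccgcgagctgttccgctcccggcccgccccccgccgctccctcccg
YAP1, past the 3′ end, chr11:102245069-102245174, plus strand: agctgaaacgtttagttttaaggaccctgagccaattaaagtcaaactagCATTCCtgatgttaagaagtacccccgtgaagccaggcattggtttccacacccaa
TEAD1, intron, chr11:12802541-12802646, plus strand: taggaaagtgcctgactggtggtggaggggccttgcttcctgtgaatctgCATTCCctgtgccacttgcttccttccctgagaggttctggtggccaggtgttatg
Those of CCN1, AMOTL2 and YAP1 were in the 8-base form, and that of TEAD1 was not. The scores of these hotspots were 28.2 in CCN1, 16.9 in AMOTL2, 14.8 in YAP1 and 18.7 in TEAD1. ANKRD1 had no such hotspot.

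TEAD cores were more common in hotspots assigned to the target genes than in those assigned to the TEAD and coactivator genes. Over all 10 genes, 36 of the 135 assigned hotspots, or 26.7% (95% Wilson interval 19.9% to 34.7%), held a core, against 18.6% of all hotspots and 21.3% of all hotspots of the same width, within 10% of each hotspot's own. Of the 44 hotspots of the target genes, 21 held a core, or 47.7% (33.8% to 62.1%), where 25.3% did at the same width. Of the 91 hotspots of the TEAD and coactivator genes, 15 did, or 16.5% (10.3% to 25.4%), where 19.4% did at the same width. These intervals cover counting error only and treat hotspots of 1 gene as separate, although they share a locus. The difference between the groups was not tested. Only the share over all 10 genes was planned, and its interval includes the 21.3% at the same width. The share for the target genes alone was added after the data were seen, for genes picked as known targets of the pathway.

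Within the target genes, cores were found in 3 of the 6 hotspots of CCN1, 5 of the 10 of CCN2, 1 of the 3 of ANKRD1 and 12 of the 25 of AMOTL2. AMOTL2 thus gave most of the hotspots with a core, and without it the share over the other target genes was 47.4%. Leaving out the promoter hotspots, 16 of 37 held a core, or 43.2% (28.7% to 59.1%), where 22.9% did at the same width. In TEAD1, 6 of 34 assigned hotspots held a core, in YAP1 4 of 30, in WWTR1 2 of 12, in TEAD3 2 of 6 and in TEAD4 1 of 9.

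In its 8-base form, the TEAD site was in 21 of the 135 assigned hotspots, or 15.6% (10.4% to 22.6%), against 6.94% of all hotspots and 7.99% at the same width. Of these, 14 were among the 44 of the target genes, or 31.8% (20.0% to 46.6%), where 9.81% had it at the same width, and 7 among the 91 of the other genes, or 7.69% (3.78% to 15.0%), where 7.11% had it. Counted by length, the target genes' hotspots held 1.35 cores per kb, those of the TEAD and coactivator genes 0.578 and those of all 10 genes 0.887. Over all hotspots the value was 1.09 per kb. It is total cores over total length, not matched by width, so hotspots with many cores can raise it. It is therefore no measure of a typical hotspot. The target genes' hotspots were wider, with a median of 427 bp, where the median over all hotspots was 287 bp.

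AP-1 sites were found in 28 of the 135 assigned hotspots, or 20.7% (14.8% to 28.3%), against 12.6% of all hotspots and 14.0% of all hotspots of the same width. The share was 22.7% in the target genes, 16.7% in the coactivators and 22.4% in the TEAD genes, with counts of 10 of 44, 7 of 42 and 11 of 49. A TEAD core and an AP-1 site stood together in 11 of the 135, or 8.15% (4.61% to 14.0%), against 3.59% of all hotspots. The 3.59% was not matched by width. Of these 11, 6 belonged to the target genes, 4 of them to AMOTL2.

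**Figure D3:**
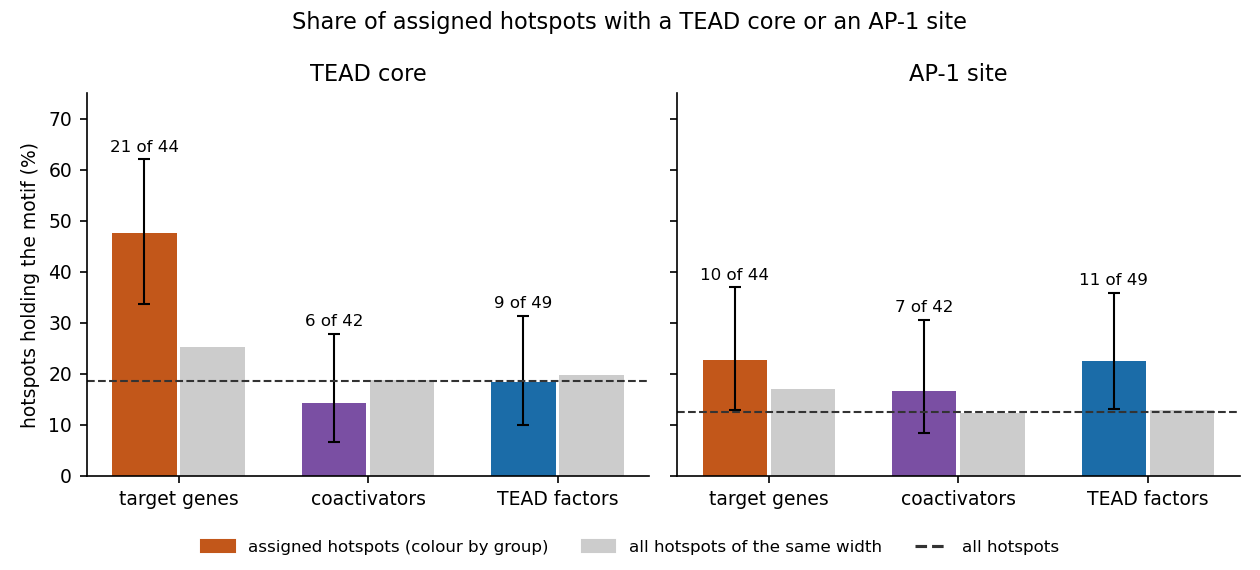
Bars give the percentage of assigned hotspots that hold a TEAD core (left) or an AP-1 site (right) for each group of genes, with the counts and 95% Wilson intervals over them, grey bars the share among all hotspots of the same width, and the dashed line the share among all hotspots. The target genes' bar for the TEAD core, 47.7%, stands above its grey bar at 25.3% with an interval from 33.8% to 62.1%, and the bars for the AP-1 site have intervals that overlap.

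In 4 of the 143 hotspots of the 10 genes a TEAD core and an AP-1 site stood within 30 bases of each other. Over all hotspots the share was 0.905%, not matched by width. All 4 belonged to the target genes CCN1, CCN2 and AMOTL2. They are shown with 30 bases on either side, with both sites in capitals.
CCN1, 26.5 kb downstream, chr1:85607466-85607546, plus strand: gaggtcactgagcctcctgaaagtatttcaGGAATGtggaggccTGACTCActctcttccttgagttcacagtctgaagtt
CCN2, 3.55 kb upstream, chr6:131954861-131954933, minus strand: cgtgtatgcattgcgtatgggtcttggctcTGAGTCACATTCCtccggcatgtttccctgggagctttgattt
AMOTL2, past the 3′ end, chr3:134348728-134348824, minus strand: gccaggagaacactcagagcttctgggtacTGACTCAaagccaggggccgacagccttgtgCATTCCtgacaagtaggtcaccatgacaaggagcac
AMOTL2, upstream, chr3:134427590-134427687, minus strand: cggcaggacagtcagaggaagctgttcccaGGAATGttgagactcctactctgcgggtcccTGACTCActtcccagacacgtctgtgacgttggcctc
In CCN2 the AP-1 site ran straight into the TEAD core with 0 bases between them, in a hotspot with a score of 6.74. The gap was 8 bases in CCN1, in the hotspot with a score of 8.71, and 24 and 25 bases in AMOTL2, in hotspots with scores of 4.56 and 12.8. The core was in the 8-base form in all 4. Among hotspots that held both sites anywhere, 4 of 11 in these genes and 25.2% over all hotspots had them this close.

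Another AMOTL2 hotspot, 48.2 kb downstream of the TSS with a score of 5.55, held 3 cores in a row, the last on the other strand, and is shown because no other hotspot of these genes outside exons held them so close.
AMOTL2, 3 cores, chr3:134326341-134326420, minus strand: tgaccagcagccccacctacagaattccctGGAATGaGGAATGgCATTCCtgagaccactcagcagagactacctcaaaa

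The stronger hotspots of the 10 genes away from promoters mostly held one motif or the other. Of the 15 with a score above 10.0 assigned to the 10 genes, 9 held a TEAD core, 8 an AP-1 site and 13 at least 1 of the 2. Among all 25400 hotspots away from promoters above that score, 26.5% held a core, 25.0% an AP-1 site and 41.9% either. The 15 were wider, with a median of 665 bp, against 422 bp. At their own widths 32.0% of all hotspots, of any score and promoters included, held a core and 21.0% an AP-1 site. The share with either was not matched by width, so the 13 of 15 has no like comparison. The score limit was chosen after the values were seen, and AMOTL2 gave 6 of the 15, TEAD1 and YAP1 3 each, and TEAD3, WWTR1 and CCN1 1 each.

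The rest of the pathway was described with lists of 47 further genes from textbook knowledge, and 46 of these had a promoter hotspot, against 74.9% of all genes. All 11 genes of the core kinase list had one, with a median score of 33.8. The list holds the MST, LATS, TAOK and related kinases, and also partners such as MOB1 that are not kinases. TAOK3, a kinase that acts on the MST kinases, had the highest, 43.2, and MAP4K4, a kinase that acts on LATS, had the most assigned hotspots, 29. The 16 upstream regulators all had one, with a median score of 21.1. NF2, the tumor suppressor merlin, scored 45.4, and WWC1, the scaffold KIBRA, had 45 assigned hotspots, more than 99.7% of all genes.

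Of the 4 other TEAD cofactors, 3 had a promoter hotspot, VGLL1 had none, and VGLL4, which competes with YAP1 for TEAD, had both the highest score, 36.8, and the most assigned hotspots, 33. The 16 other target genes all had one, with a lower median score of 14.8, and 5 of them exceeded the all-gene median. GADD45A, a gene of the DNA damage response, scored 42.1, and ASAP1, a regulator of ARF proteins, had 41 assigned hotspots. A TEAD core was found in 57 of the 243 hotspots of these other target genes, or 23.5% (18.6% to 29.2%), where 19.1% held one at the same width. In the core kinase list it was found in 15 of 111, or 13.5% (8.36% to 21.1%), where 18.1% held one at the same width. In the upstream regulators it was found in 60 of 248, or 24.2% (19.3% to 29.9%), where 20.0% did, and in the cofactors in 10 of 64, or 15.6% (8.71% to 26.4%), where 18.2% did. The upstream regulators thus stood above their width-matched share by about as much as the other target genes. The difference between the 4 target genes and any of these lists was not tested.

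**Figure D4:**
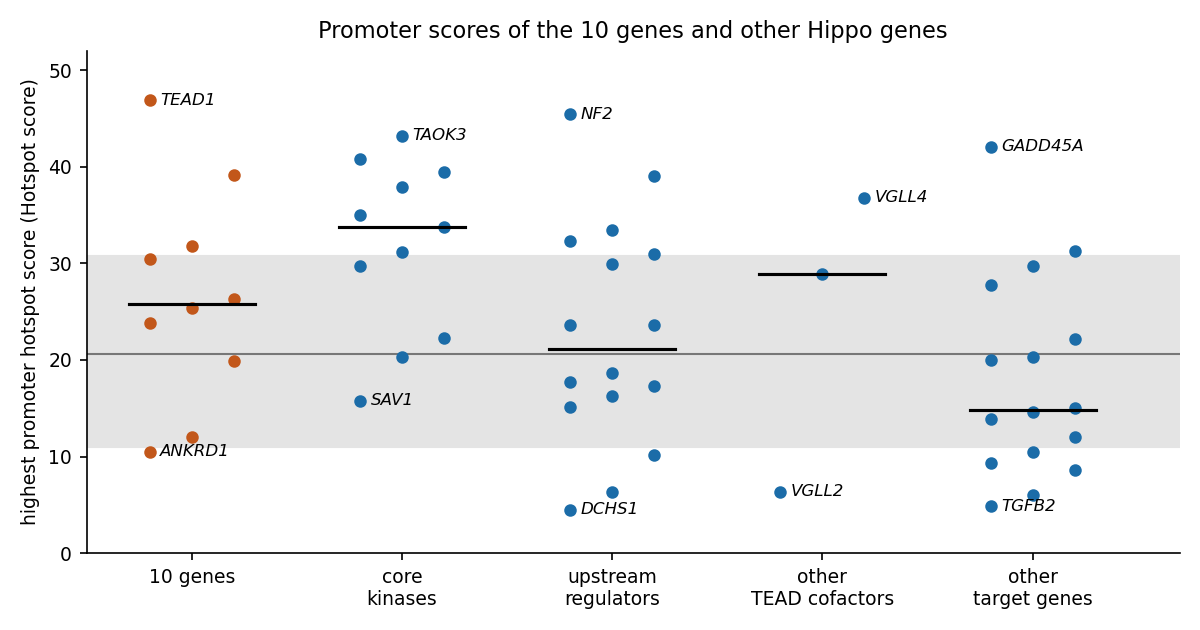
Each point is the highest promoter hotspot score of 1 gene (Hotspot score), for the 10 genes and 4 lists of other Hippo genes, with black bars at the medians, the grey line at the all-gene median and the grey band over the middle 50% of all genes with a promoter hotspot. The core kinase median, 33.8, lies above the band and the median of the other target genes, 14.8, lies in its lower part, and VGLL1, with no promoter hotspot, is left out.

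As a check of the label, markers of basal mammary epithelium were set against those of other cells. Of 4 basal markers, KRT5 and ITGA6 had a promoter hotspot, with scores of 30.8 and 35.3, and KRT14 and TP63 had none within 1000 bp of a TSS. CDH1, a gene of epithelial cells in general, had one with a score of 26.7. Of 4 immune cell markers, CD14 had one with a score of 16.5 and the other 3 had none, and neither of 2 hepatocyte markers had one.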

How the data were processed

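ATAC-seq was performed on 5 MCF10A libraries. Per the labels and the paper's methods, the authors used Bowtie2 and hg38 to align the reads, merged the alignments, removed duplicate reads and called hotspots on the merged reads with the program Hotspot. The deposited table names a false discovery rate of 0.01 and gives a chromosome, a start and an end in bp and a score for each hotspot. The reference of the score is not given in the sources used here, nor is a shift for Tn5. Mitochondrial reads were dropped for the browser track, and whether they were dropped before Hotspot is not stated. The score was divided neither by depth nor by width. Since replicates were pooled before the calls, no test was run and depth is unknown.

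Genes and TSSs were those of protein-coding transcripts in GENCODE release 44 (78471 TSSs). Motifs were counted on both strands of the whole hotspot. Hotspots of the same width are those within 10% of its width. Named pathway genes are, per list, the one with the highest promoter score, the one with the most assigned hotspots and any with no promoter hotspot. A distal sequence that the rule would also show is not reported here. The members and lists were chosen with earlier results of these data known. Motif search and gene assignment were tested on 400 and 200 simulated cases, with 0 wrong. Alternatives were other TSS windows and definitions, a midpoint rule, a shorter limit of assignment, hotspots above the median score, and other forms of the motif. Software was Python 3.11.15 with numpy, scipy, pandas, pysam and matplotlib.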

Additional observations from a re-analysis of the deposited data

How the results depend on the processing

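Each of 8 results was recomputed under alternatives, 33 in all, of which 11 were chosen after the data were seen. The result for the target genes' cores was itself added then. All 10 genes kept a promoter hotspot in each setting but that of the outermost 5′ end alone, where 9 had one. Their median promoter score was 24.6 with a TSS window of 500 bp and with the midpoint rule, and 25.4 with the outermost 5′ end, against 21.2, 20.7 and 20.5 over all genes. The median of assigned hotspots per gene was 8.5 within 50 kb, 4.5 for hotspots above the median score and 7.5 both with the outermost 5′ end and with the TSSs of every transcript, against 4, 2, 5 and 5 over all genes. For single genes, the score limit aside, CCN2 had 4 assigned hotspots with the TSSs of every transcript in place of 10, WWTR1 6 and TEAD2 2 with the outermost 5′ end in place of 12 and 0, and TEAD1 18 within 50 kb and 20 with the outermost 5′ end in place of 34. Above the median score, 68 hotspots were assigned to the 10 genes and 45 lay inside them, as a stricter limit leaves fewer hotspots. In that setting 41.2% of assigned hotspots held a TEAD core and 30.9% an AP-1 site, against 23.6% and 17.7% of all such hotspots. In the central 120 bp the shares were 8.89% and 7.41%, against 7.40% and 5.82%, and for the target genes' cores 18.2%. With the 8-base form they were 15.6% for the 10 genes and 31.8% for the target genes. Leaving out each target gene in turn gave shares of hotspots with a core between 47.1% and 48.8%. No paired analysis was possible because the 5 libraries form 1 group and were pooled before the calls. Depth, and with it the precision of a score, cannot be told from these values.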
